A study of Mus musculus with 18 samples.

Results

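Transcripts of 10 genes of the TGF-beta superfamily were followed across sorted cells of normal mouse pancreas and of pancreatic tumors. They are 5 ligand genes (Tgfb1, Tgfb2, Tgfb3, and the activin subunits Inhba and Inhbb), 3 receptor genes (Tgfbr1, Tgfbr2 and Tgfbr3) and 2 genes of secreted antagonists (Grem1 and Fst). The genes were chosen by name, and all 10 were found among the 23951 gene symbols of the deposited table. All 10 passed the filter on low values that left 13369 genes for testing. Of their 180 values, 11 were under 1 FPKM (fragments scaled to transcript length and to the mapped fragments of the library), and 0 were listed at exactly 0.

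TGF-beta ligands are secreted in a latent form, are released in the matrix, and then assemble type I and type II receptor kinases (Tgfbr1 and Tgfbr2) that phosphorylate Smad proteins. Activins, made of Inhba or Inhbb subunits, use their own receptors and feed into the same Smads, and bone morphogenetic proteins (BMPs) use a parallel set. Secreted antagonists bind ligands before they reach a receptor: follistatin (Fst) binds activins and gremlin (Grem1) binds BMPs. In pancreatic tumors the pathway is known both for restraining epithelial growth and for driving fibroblasts to make matrix.

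RNA with poly(A) tails was measured in 18 libraries of 5 groups. Normal pancreatic fibroblasts (NPF, n = 3) came from mice with K-Ras+/+, and tumor fibroblasts (WT_CAF, n = 5) and tumor cells (WT_Tumor, n = 4) from mice with K-Ras+/LSLG12Vgeo and Trp53lox/lox. The groups KO_CAF (n = 3) and KO_Tumor (n = 3) are the same cell types from mice that also carry Saa3-/-, the loss of a serum amyloid gene. Every group also carries the transgene pair Elas-tTA/tetO-Cre and the reporter allele Rosa26+/EYFP, and only NPF lack the K-Ras and Trp53 alleles, so normal and tumor fibroblasts differ in genotype of the mouse as well as in tissue. The elastase promoter that drives the Cre system is an acinar cell promoter. The sources used here give neither ages nor sort markers, nor do they say if 1 mouse gave both cell types.

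The check of the deleted gene separated the libraries by labelled Saa3 genotype, with Saa3 at 0 to 1.85 FPKM in the 6 knockout libraries and at 2.75 to 4278 in the other 12. WT_CAF 1 held 7.24 FPKM of Saa3 against 892 to 4278 in the other WT_CAF libraries, and NPF held 331, 5.32 and 3.13. NPF 1, with the 331, also had the highest FPKM sum of all libraries (919859, against 454838 and 519833 in NPF 2 and 3). The 10 fibroblast markers summed to 3282 to 24006 FPKM in 10 fibroblast libraries, to 954 in the library labelled WT_CAF 1, and to 20.1 to 707 in tumor cells. The 10 epithelial markers summed to 2963 to 8652 FPKM in tumor cells and to 7.72 to 648 in fibroblasts, with the highest of these in WT_CAF 1. The marker values set 3 libraries apart from their groups. WT_CAF 1 held 9.80 FPKM of the fibroblast receptor Pdgfra (other WT_CAF up to 121) and was closest to WT_Tumor 4 over all tested genes (Spearman 0.887). WT_Tumor 4 held 2.60 FPKM of the epithelial Epcam (up to 549 in its group), and WT_Tumor 3 held the 707 FPKM of fibroblast markers. The 10 acinar markers summed to 2051 to 24914 FPKM in 5 tumor cell libraries and to 15.1 and 9.83 in WT_Tumor 4 and KO_Tumor 1. Fibroblast collagens listed at exactly 0 (Col3a1 in 5 libraries, Col1a1 and Col1a2 in KO_CAF 2) may be failed estimates. Differences below come from 1 limma fit over all libraries and genes on log2(FPKM + 1), with the form of the sequencing index in the label (none, 6 bases or 16 bases) as a term, and a gene is called at a Benjamini-Hochberg adjusted p under 0.05. Values are difference ± standard error on that scale, and FPKM means are ± SD. WT_CAF 1 and 2, the only libraries besides NPF without an index, serve to set the no-index level in this fit. Fitted differences of WT_CAF from KO_CAF and from tumor cells therefore rest on WT_CAF 3 to 5, while the means given for WT_CAF hold all its libraries. In these bulk samples, fewer cells of a type and less RNA per cell cannot be told apart.

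**Figure D1:**
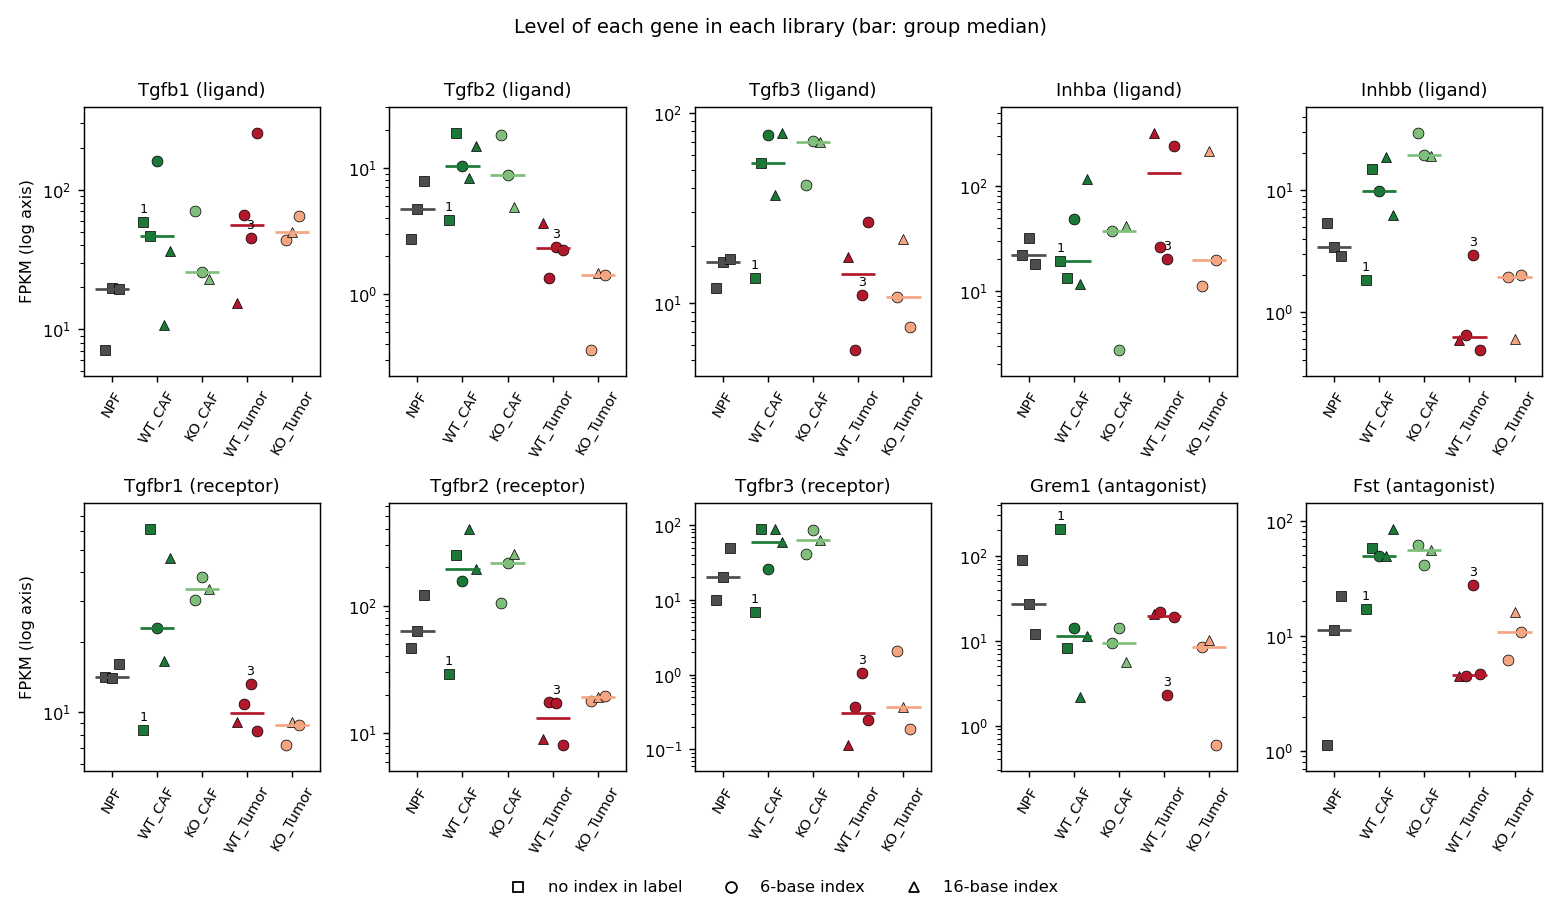
FPKM (log axis) of the 10 genes in each of 18 libraries, by group; points are libraries, shaped by index form, horizontal lines are group medians, and WT_CAF 1 and WT_Tumor 3 are numbered. Tgfbr3 lies at 0.113 to 2.09 FPKM in the tumor cells and at 6.95 to 89.5 in the fibroblasts, while Tgfb1, Inhba and Grem1 overlap between the 2 cell types.

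Tumor cells held fewer transcripts of all 3 TGF-beta receptor genes, of Tgfb2, Tgfb3 and Inhbb, and of follistatin than tumor fibroblasts did, though Tgfbr1 and Fst were each called in 1 of the 2 comparisons only. With Saa3 intact (WT_Tumor against WT_CAF), 6 of the 10 genes were lower and 0 higher, where 12.5% of all genes tested were lower and 9.05% higher. Without Saa3 (KO_Tumor against KO_CAF), again 6 of 10 were lower and 0 higher, against 15.4% and 13.0% of all genes. The comparisons share no library, but they share the estimate of the spread. The index term, estimated over all libraries, enters only the difference with Saa3 intact. KO_Tumor and KO_CAF hold the same mix of index forms, so it cancels there. The calls in common were Tgfb2, Tgfb3, Inhbb, Tgfbr2 and Tgfbr3. The median difference of the 10 genes was -1.90 with Saa3 intact and -2.21 without it, beside 0.07 and 0.05 over all genes tested. With Saa3 intact, 3 of the 10 were lower in every tumor cell library than in every fibroblast library (7.01% of all genes, with 5.66% higher throughout), and without Saa3 7 of the 10 were (21.3%, with 20.6% higher throughout).

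Tgfbr3 encodes betaglycan, a co-receptor that presents TGF-beta2 and inhibin to the signalling receptors. It stood at 6.95, 88.1, 25.7, 89.5 and 59.3 FPKM in WT_CAF (replicates 1 to 5) and at 41.2, 85.9 and 64.3 in KO_CAF. Tumor cells held 0.113, 0.370, 1.04 and 0.250 FPKM in WT_Tumor and 2.09, 0.369 and 0.187 in KO_Tumor. Every tumor cell library lay below every fibroblast library. The difference was -5.17 ± 0.76 with Saa3 intact (limma adjusted p = 0.000767) and -5.18 ± 0.77 without it (adjusted p = 0.000588). Group means were 53.9 ± 36.9 against 0.444 ± 0.414 FPKM and 63.8 ± 22.3 against 0.884 ± 1.05. Among tumor cells, the highest Tgfbr3 values were in KO_Tumor 1 and WT_Tumor 3. Those libraries also held the most fibroblast markers of their groups, 187 and 707 FPKM in sum, and the part of such RNA in these values was not tested.

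Tgfbr2, the type II kinase that binds TGF-beta first, was the most abundant of the 3 receptor genes in all fibroblast libraries. It stood at 29.1, 251, 156, 398 and 192 FPKM in WT_CAF, at 104, 215 and 254 in KO_CAF, at 9.04, 17.5, 17.2 and 8.04 in WT_Tumor and at 17.9, 19.2 and 19.6 in KO_Tumor. Both tumor cell groups lay below all fibroblasts, with WT_CAF 1 the nearest. The difference was -4.01 ± 0.64 with Saa3 intact (limma adjusted p = 0.00106) and -3.17 ± 0.65 without it (adjusted p = 0.00319). Tgfbr1, the type I kinase that Tgfbr2 activates, was closer between cell types. Its range was 8.39 to 61.5 FPKM in WT_CAF against 8.34 to 13.3 in WT_Tumor, and 30.6 to 38.4 in KO_CAF against 7.21 to 9.05 in KO_Tumor. It was called only without Saa3 (-1.91 ± 0.51, adjusted p = 0.0139), and stood at -1.25 ± 0.51 (adjusted p = 0.0916) with Saa3 intact. That the size differs between the comparisons was not called for any of the 10 genes (interaction, limma adjusted p = 1 for each). With WT_CAF 1 or WT_CAF 2 left out, Tgfbr1 was called with Saa3 intact (adjusted p = 0.00706 and 0.00701). Its difference cannot move there, because these libraries only set the no-index level in the fit. Only the standard error changed. At 8.39 FPKM of Tgfbr1, WT_CAF 1 lay among the tumor cells. Without KO_CAF 2, Tgfbr1 was not called in the knockout pair (adjusted p = 0.0539). Within the libraries of 1 index form, Tgfbr2 and Tgfbr3 were lower in tumor cells in all 4 cases, by -2.93 to -6.05. With Saa3 intact these cases set 3 tumor cell libraries against 1 of fibroblasts (6-base) and 1 against 2 (16-base). Without Saa3 they set 2 against 2 and 1 against 1.

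Inhbb, which encodes the beta-B subunit of activin B, was lower in tumor cells in both comparisons. It stood at 1.82, 14.8, 9.74, 18.8 and 6.28 FPKM in WT_CAF and at 29.4, 19.4 and 19.1 in KO_CAF. In tumor cells it stood at 0.588, 0.646, 2.93 and 0.490 FPKM in WT_Tumor and at 1.94, 0.602 and 1.99 in KO_Tumor. The knockout groups did not overlap, while WT_Tumor 3 exceeded WT_CAF 1. The difference was -2.70 ± 0.55 with Saa3 intact (limma adjusted p = 0.00432) and -3.26 ± 0.56 without it (adjusted p = 0.00121).

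Tgfb2 and Tgfb3, the isoforms known for roles in embryonic tissues and palate formation, were also lower in tumor cells. Tgfb2 ranged over 3.87 to 18.8 FPKM in WT_CAF against 1.34 to 3.63 in WT_Tumor, and over 4.88 to 18.2 in KO_CAF against 0.364 to 1.47 in KO_Tumor. Neither pair of groups overlapped, and the differences were -1.84 ± 0.53 (limma adjusted p = 0.0238) and -2.35 ± 0.54 (adjusted p = 0.00603). Tgfb3 ranged over 13.5 to 78.0 FPKM in WT_CAF against 5.69 to 26.6 in WT_Tumor, and over 41.5 to 71.2 in KO_CAF against 7.47 to 21.5 in KO_Tumor. Its differences were -1.95 ± 0.55 (limma adjusted p = 0.0214) and -2.20 ± 0.55 (adjusted p = 0.0101), and WT_CAF 1 alone among fibroblasts of tumors lay within the tumor cell range.

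Fst, which encodes the activin trap follistatin, stood at 17.2, 58.4, 49.6, 49.5 and 84.9 FPKM in WT_CAF and at 61.8, 41.2 and 55.1 in KO_CAF. It stood at 4.52, 4.53, 27.4 and 4.63 FPKM in WT_Tumor and at 6.21, 16.2 and 10.8 in KO_Tumor. WT_Tumor 3, the library with the most fibroblast markers among tumor cells, held more Fst than WT_CAF 1, and the other 3 WT_Tumor libraries lay between 4.52 and 4.63. The difference was -2.80 ± 0.80 with Saa3 intact (limma adjusted p = 0.0230). Without Saa3 the 2 groups did not overlap, yet the gene was just outside the threshold (-2.22 ± 0.81, adjusted p = 0.0532), and with only these 2 groups in the fit it was called (adjusted p = 0.00760).

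The calls of Tgfb2, Tgfb3 and Fst with Saa3 intact were lost when some single libraries were left out. Without WT_CAF 3 the differences were -1.89 ± 0.69, -1.45 ± 0.67 and -2.95 ± 1.04 (limma adjusted p = 0.101, 0.191 and 0.0917). Without WT_CAF 5 they were -1.65 ± 0.59, -1.84 ± 0.62 and -2.59 ± 0.89 (adjusted p = 0.0673, 0.0548 and 0.0611). Without WT_Tumor 1, Fst was at -2.34 ± 0.94 (adjusted p = 0.116), and Tgfb3 had a slightly larger difference and an adjusted p of 0.0630. Each standard error was larger than with all libraries, and the differences kept their direction, with that of Tgfb3 without WT_CAF 3 the most reduced. With only the 2 groups in the fit, Tgfbr2 and Tgfbr3 were the 2 members still called.

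Tgfb1, Inhba and Grem1 were not called between the cell types, and their values spread widely within several of the groups. Tgfb1, the isoform most tied to fibrosis and immune restraint, stood at 15.4, 66.0, 45.2 and 254 FPKM in WT_Tumor and at 58.7, 46.9, 159, 10.7 and 36.1 in WT_CAF. Knockout libraries held 43.8, 49.7 and 65.0 FPKM of Tgfb1 in KO_Tumor, a narrow range, and 70.3, 25.7 and 22.8 in KO_CAF. Its highest value lay in WT_Tumor 4, the library low in Epcam. The difference was -0.14 ± 0.72 with Saa3 intact (limma adjusted p = 0.911) and 0.58 ± 0.73 without it (adjusted p = 0.579).

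Inhba, which encodes the beta-A subunit of activin A, fell into a high and a low set of tumor cell libraries. It stood at 320, 26.0, 20.1 and 239 FPKM in WT_Tumor and at 11.1, 214 and 19.6 in KO_Tumor. Fibroblasts held 19.1, 13.1, 48.6, 11.6 and 117 FPKM in WT_CAF and 37.4, 2.75 and 42.0 in KO_CAF. WT_Tumor 1 and KO_Tumor 2, both high, are the tumor cell libraries with a 16-base index, while WT_Tumor 4 has a 6-base index. The differences between cell types were 1.78 ± 1.09 (limma adjusted p = 0.252) and 1.04 ± 1.10 (adjusted p = 0.501). Within the 6-base form they were 0.05 (3 tumor cell libraries against 1 of fibroblasts) and 0.39 (2 against 2). Within the 16-base form they were 3.06 (1 against 2) and 2.32 (1 against 1). These sizes rest on few libraries, and the part of the index form in the values was not tested.

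Grem1, which encodes the BMP antagonist gremlin, varied widely among the libraries of WT_CAF and of NPF, and less in KO_CAF. It stood at 209, 8.27, 14.0, 2.19 and 11.4 FPKM in WT_CAF, at 9.33, 14.3 and 5.68 in KO_CAF and at 88.8, 26.8 and 12.1 in NPF. The value of 209 was in WT_CAF 1. Tumor cells held 20.4, 21.6, 2.32 and 19.1 FPKM in WT_Tumor and 8.52, 10.3 and 0.583 in KO_Tumor. The differences between cell types were 0.71 ± 1.15 (limma adjusted p = 0.685) and -0.88 ± 1.16 (adjusted p = 0.598). The first rests on WT_CAF 3 to 5 and so does not hold the value of 209. Over all libraries the mean was higher in WT_CAF (48.9 FPKM) than in WT_Tumor (15.9).

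**Figure D2:**
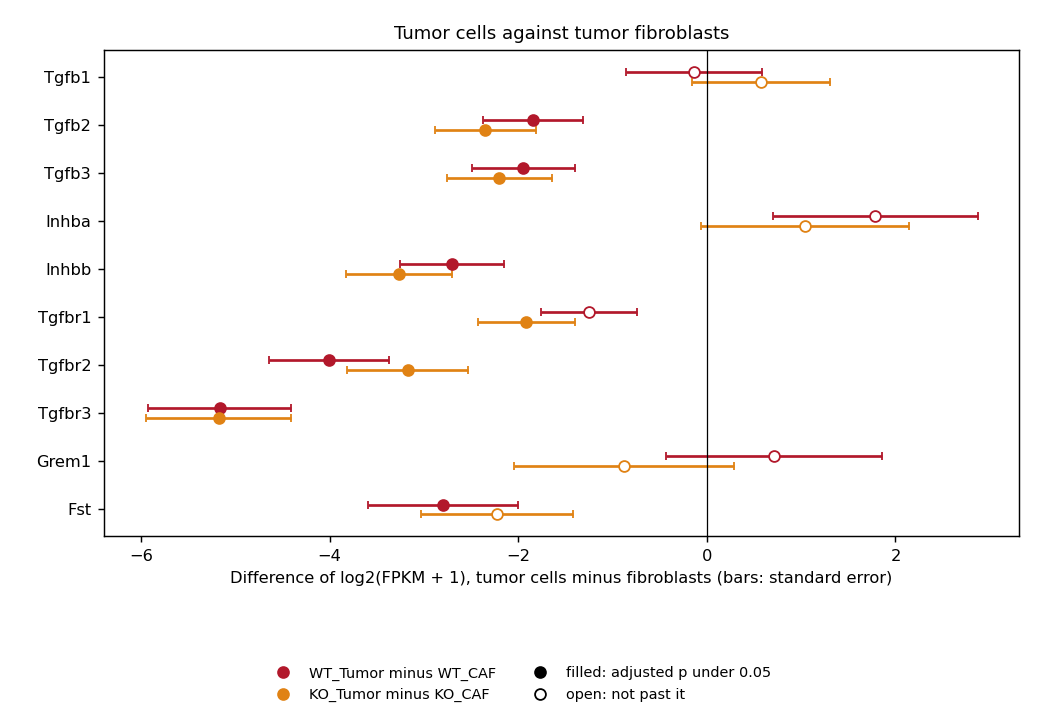
Difference of log2(FPKM + 1) between tumor cells and tumor fibroblasts for each gene, with Saa3 intact and without it; points are differences from the fit, bars are standard errors, and filled points are past an adjusted p of 0.05. Tgfbr3 lies at -5.17 and -5.18, and Tgfb1, Inhba and Grem1 are open in both comparisons.

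The base composition before the start sites differed among the genes. Of the 10 genes 7 had an entry in the RefSeq promoter table (GRCm38.p6, not the build the authors list), and the 250 bases before the start are shown for 3 genes called lower in tumor cells in both comparisons (Tgfbr2, Tgfb2 and Inhbb) and for Inhba, which was not. Capitals mark matches on either strand to 4 motifs: the Smad-binding core CAGAC, the GC box GGGCGG, the AP-1 site TGANTCA and the TATA motif TATAAA.
Tgfbr2 (GRCm38.p6, chr9:116175364-116175613, minus strand): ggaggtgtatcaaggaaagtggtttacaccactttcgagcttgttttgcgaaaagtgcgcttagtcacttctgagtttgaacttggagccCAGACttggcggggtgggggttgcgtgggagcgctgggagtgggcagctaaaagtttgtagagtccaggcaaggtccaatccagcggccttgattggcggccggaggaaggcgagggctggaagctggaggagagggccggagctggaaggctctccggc
Tgfb2 (GRCm38.p6, chr1:186705990-186706239, minus strand): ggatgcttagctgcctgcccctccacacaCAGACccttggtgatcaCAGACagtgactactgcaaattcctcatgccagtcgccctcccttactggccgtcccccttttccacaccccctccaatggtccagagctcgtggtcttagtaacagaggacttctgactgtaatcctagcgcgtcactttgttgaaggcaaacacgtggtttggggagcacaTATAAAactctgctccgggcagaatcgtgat
Inhbb (GRCm38.p6, chr1:119422249-119422498, minus strand): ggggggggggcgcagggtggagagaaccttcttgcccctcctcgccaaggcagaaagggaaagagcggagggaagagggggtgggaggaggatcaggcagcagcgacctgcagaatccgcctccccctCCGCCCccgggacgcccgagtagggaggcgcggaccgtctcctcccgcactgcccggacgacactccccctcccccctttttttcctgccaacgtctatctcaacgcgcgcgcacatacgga
Inhba (GRCm38.p6, chr13:16011601-16011850, plus strand): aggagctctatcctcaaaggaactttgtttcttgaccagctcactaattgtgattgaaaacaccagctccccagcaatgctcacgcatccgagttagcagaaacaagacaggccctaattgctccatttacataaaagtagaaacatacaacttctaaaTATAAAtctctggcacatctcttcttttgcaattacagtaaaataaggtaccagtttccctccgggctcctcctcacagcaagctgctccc

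A CAGAC match stood 160 bases before the start of Tgfbr2, and 2 stood in Tgfb2, while Inhbb and Inhba had 0. Of all 32851 promoter windows of this length, 42.2% held that motif. Tgfb2 carried a TATA match 31 bases before its start and Inhba one 91 bases before, a motif found in 12.4% of windows. Inhbb held 1 GC box, which 32.7% of windows hold, and none of the 4 held TGANTCA (6.75% of windows). The windows were 58.4% G and C in Tgfbr2, 53.6% in Tgfb2, 68.0% in Inhbb and 43.2% in Inhba, with a median of 52.4% over all windows. None of the 4 patterns was common to Tgfbr2, Tgfb2 and Inhbb, and such matches are descriptions of sequence only.

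Tumor fibroblasts were set against fibroblasts of normal pancreas to ask which members of the pathway accompany the tumor state. With all libraries, 0 of the 10 genes were called in WT_CAF against NPF (0.277% of all genes were called higher and 0.673% lower; 2254 genes and 2 members, Tgfb1 and Fst, had an unadjusted p under 0.05). The groups overlapped for all 10 genes (5.13% of all genes were higher throughout and 6.05% lower). Of the 10 differences 9 were above 0, with a median of 0.55 beside -0.01 over all genes tested. Because NPF libraries carry no index in the label, the size of each difference rests on WT_CAF 1 and WT_CAF 2 alone. These libraries stood far apart, for example for Tgfbr2 (29.1 and 251 FPKM) and Grem1 (209 and 8.27).

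Fst stood at 1.12, 11.2 and 22.1 FPKM in NPF, and only WT_CAF 1, at 17.2, lay within that range. It was at 1.96 ± 0.90 (limma adjusted p = 0.292). Tgfb3 stood at 11.9, 16.4 and 17.0 FPKM in NPF against 13.5, 54.5, 75.9, 36.9 and 78.0 in WT_CAF, so that 4 of 5 libraries were above NPF and WT_CAF 1 was not. Its difference was 0.83 ± 0.62 (adjusted p = 0.524). The same library was the one WT_CAF inside or below the NPF range for Tgfbr1 (8.39 FPKM against 14.1 to 16.1), Inhbb (1.82 against 2.86 to 5.39) and Tgfbr2 (29.1 against 46.8 to 120).

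Without WT_CAF 1 and without the index term, Fst (2.84 ± 0.69, limma adjusted p = 0.0219), Tgfb3 (1.91 ± 0.44, 0.0175), Tgfbr2 (1.71 ± 0.41, 0.0213) and Inhbb (1.39 ± 0.40, 0.0495) were called higher in WT_CAF. Under that fit 518 of all 13369 genes were called higher and 392 lower, against 37 and 90 with all libraries. Leaving out WT_CAF 1 with the index term kept compares WT_CAF 2 alone with NPF and assumes that this library varies like those of the other groups. Tgfbr1 was then the 1 called member (1.99 ± 0.42, limma adjusted p = 0.0393), and WT_CAF 2 held the most Tgfbr1 of the 18 libraries (61.5 FPKM). Tgfb1 was at 1.83 ± 0.82 with all libraries (adjusted p = 0.279), and Grem1, at 0.46 ± 1.30 (adjusted p = 0.903), turned to -1.90 ± 0.84 (adjusted p = 0.209) without WT_CAF 1 and the index term.

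The fibroblasts of Saa3-/- tumors give a view of the same question that does not hold WT_CAF 1 among the compared libraries. This comparison was added after the values were seen. Of the 10 genes 5 were higher in every KO_CAF library than in every NPF library (Tgfb1, Tgfb3, Inhbb, Tgfbr1 and Fst), where 13.1% of all genes tested did so, and 0 were lower throughout (14.0% of genes). Inhbb stood at 19.1 to 29.4 FPKM against 2.86 to 5.39, and Tgfb3 at 41.5 to 71.2 against 11.9 to 17.0. Tgfbr1 stood at 30.6 to 38.4 FPKM against 14.1 to 16.1, and Fst at 41.2 to 61.8 against 1.12 to 22.1. By limma 0 of the 10 were called (0.0299% of all genes higher, 0.105% lower; 1237 genes and 0 members at an unadjusted p under 0.05), with Inhbb at 1.37 ± 0.85 (adjusted p = 0.634). No KO_CAF library has the index form of NPF, so the form and the group can be parted only through WT_CAF 1 and 2. Without WT_CAF 1 and the index term, Inhbb (2.28 ± 0.43, adjusted p = 0.00649) and Tgfb3 (1.91 ± 0.47, 0.0313) were called, with 332 of all genes called higher and 309 lower.

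Markers of exocrine acinar cells, of pericytes (the cells around small vessels) and of leukocytes moved with these comparisons. The 10 acinar markers summed to 1232 to 48532 FPKM in NPF, to 27.9 to 719 in WT_CAF and to 13.5 to 193 in KO_CAF, with 0 of 10 at 0 in any NPF library and Amy2b at 0 in KO_CAF 1. The 5 pericyte markers summed to 3.88 to 19.4 FPKM in NPF, to 45.9 to 67.0 in KO_CAF and to 34.3 to 78.2 in WT_CAF 2 to 5, with 2.45 in WT_CAF 1 and 0 of 5 at 0 in any library. In tumor cells they summed to 5.90 to 6.49 FPKM in KO_Tumor and to 1.62 to 75.5 in WT_Tumor. The 8 macrophage and leukocyte markers had a mean log2(FPKM + 1) of 0.949 to 1.22 in NPF and of 1.53 to 3.12 in KO_CAF. In WT_CAF it was 0.890 to 2.71, with the lowest in WT_CAF 1. Their summed FPKM overlapped between NPF and both groups. The part of acinar, pericyte and leukocyte RNA in the differences was not tested.

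**Figure D3:**
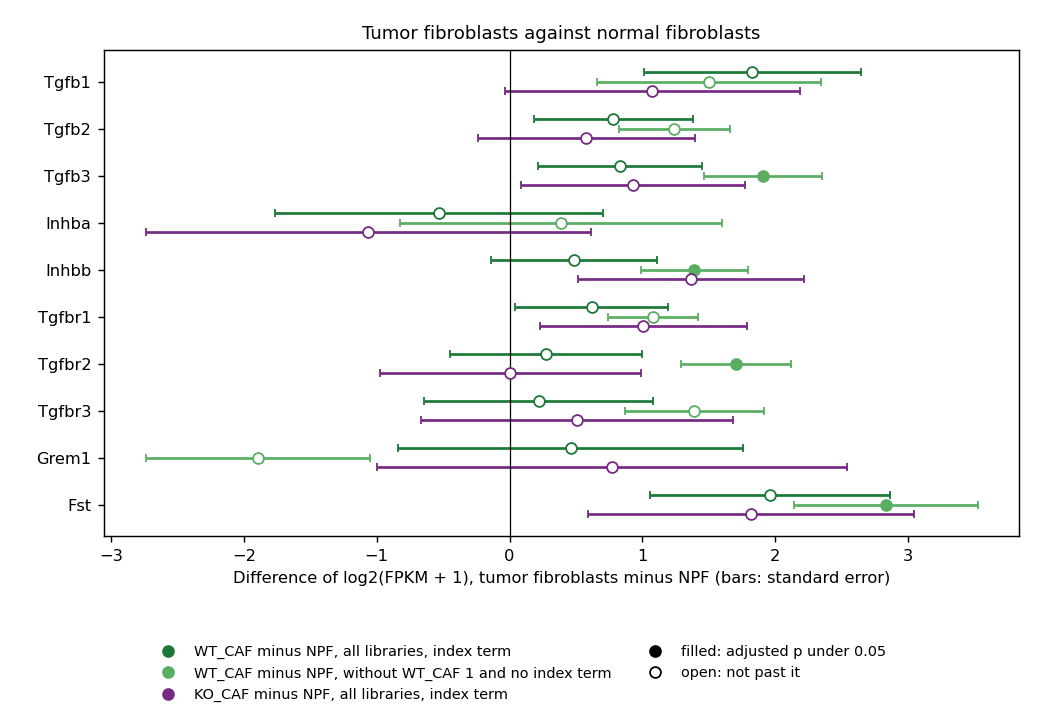
Difference of log2(FPKM + 1) between tumor fibroblasts and NPF for each gene; dark green is WT_CAF with all libraries and the index term, light green the same without WT_CAF 1 and without that term, and purple is KO_CAF. Bars are standard errors, and filled points are past an adjusted p of 0.05. Filled points (Tgfb3, Inhbb, Tgfbr2 and Fst) appear only in light green.

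Loss of Saa3 was not accompanied by a called change in any of the 10 genes, in fibroblasts or in tumor cells. In KO_CAF against WT_CAF 0 of 10 were called in either direction (0.00748% of all genes higher and 0.0% lower; 125 genes and 0 members at an unadjusted p under 0.05). In KO_Tumor against WT_Tumor 0 of 10 were called as well (0.0% of genes in either direction; 528 genes and 0 members at an unadjusted p under 0.05). The median difference of the 10 was -0.02 in fibroblasts and -0.10 in tumor cells, beside -0.01 and -0.02 over all genes. Standard errors were 0.53 to 1.20 in fibroblasts and 0.48 to 1.09 in tumor cells. Differences well above these standard errors could also go uncalled, as Bmp7 of the lists below did in tumor cells (-3.45 ± 1.08).

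Inhbb was the 1 gene of the 10 whose knockout fibroblasts did not overlap with the wild type. KO_CAF held 29.4, 19.4 and 19.1 FPKM against 1.82 to 18.8 in WT_CAF (means 22.6 and 10.3), where 0.464% of all genes tested were higher throughout and 0.733% lower. The fit gave 0.88 ± 0.58 (limma adjusted p = 1). The difference was 1.21 within the 6-base and 0.74 within the 16-base index form. In tumor cells the 1 such gene was Tgfbr2, at 17.9, 19.2 and 19.6 FPKM in KO_Tumor against 9.04, 17.5, 17.2 and 8.04 in WT_Tumor (1.36% of all genes higher throughout, 2.25% lower), with 0.57 ± 0.61 by limma (adjusted p = 1). Grem1 and Inhba had the largest fitted differences in tumor cells (-1.28 ± 1.09 and -1.28 ± 1.03, adjusted p = 1 for both), and their ranges overlapped.

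The groups were also put in order by mean log2 level. For Tgfb3, Inhbb, Tgfbr1, Tgfbr2, Tgfbr3 and Fst the order began with KO_CAF and then WT_CAF, and of these neighbours only those of Inhbb did not overlap. NPF came next, ahead of both tumor cell groups, for all of these but Fst. The WT_CAF means hold WT_CAF 1, the lowest library of its group for each of these genes. The fitted differences of KO_CAF from WT_CAF do not rest on that library. They were negative, the reverse of this order, for Tgfbr2 (-0.27 ± 0.67) and Fst (-0.15 ± 0.83). For Tgfb3, Inhbb, Tgfbr1 and Tgfbr3 they were positive. The step from NPF down to the next tumor cell group was free of overlap for Inhbb, Tgfbr1, Tgfbr2 and Tgfbr3, and not for Tgfb3. The share of all genes with such a step was not counted, so these steps are descriptions only. For Tgfbr3 that step was 3.74 on the log2 scale, between 10.1, 20.5 and 49.4 FPKM in NPF and at most 2.09 in KO_Tumor. Tgfb2 had WT_CAF first, then KO_CAF, NPF, WT_Tumor and KO_Tumor, with overlap at each step. Tgfb1 and Inhba began with WT_Tumor, KO_Tumor and WT_CAF, followed by KO_CAF and NPF for Tgfb1 and by NPF and KO_CAF for Inhba, and their neighbouring groups overlapped at each step except for Tgfb1 between KO_CAF (22.8 to 70.3 FPKM) and NPF (7.16 to 19.6). For Grem1 all neighbouring groups overlapped.

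Because FPKM is scaled by transcript length, the 3 TGF-beta isoforms can be set against each other within a library. Tgfb1 made up 68.4% to 88.0% of the summed isoforms in KO_Tumor and 42.3% to 90.4% in WT_Tumor, where WT_Tumor 1 was the lowest. In KO_CAF it made up 23.4%, 24.3% and 54.1%, in WT_CAF 19.2% to 77.1%, and in NPF 32.8% to 48.2%. Tgfb3 was the most abundant isoform in 6 of the 11 fibroblast libraries. In the tumor cells it led only in WT_Tumor 1, at 47.7%. Tgfb2 was the least abundant isoform in 18 of 18 libraries. The sum of the 3 isoforms ranged from 21.8 to 44.2 FPKM in NPF, below every other library but WT_Tumor 1 (36.4).

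**Figure D4:**
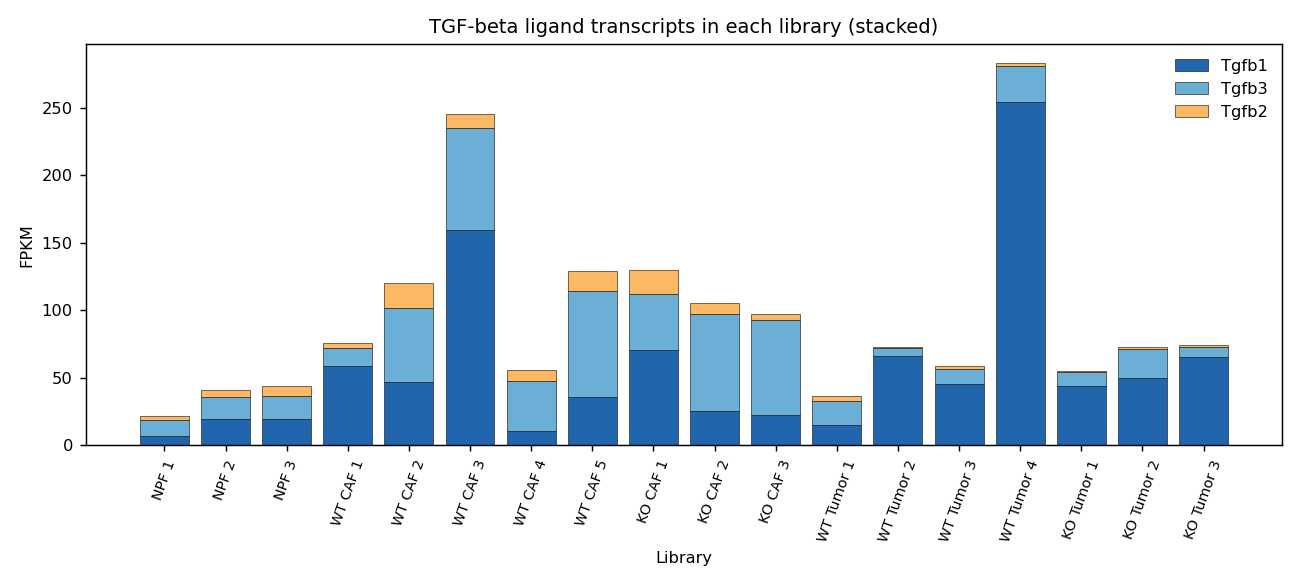
FPKM of Tgfb1, Tgfb3 and Tgfb2 stacked for each of 18 libraries, in group order. The tallest bars are WT_Tumor 4 (283 FPKM, mostly Tgfb1) and WT_CAF 3 (246), and Tgfb3 fills more than Tgfb1 in KO_CAF 2 and 3.

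The balance of activin subunits and follistatin was read as ratios within each library. The ratio of Inhba to Inhbb was 1.27 and 0.142 in KO_CAF 1 and 2 and highest of that group in KO_CAF 3 (42.0 over 19.1 FPKM). It was 0.618 to 18.7 in WT_CAF, 4.09 to 9.46 in NPF, 5.74 to 356 in KO_Tumor and 6.86 to 545 in WT_Tumor. Follistatin stood at 0.687 to 2.09 times the summed subunits in WT_CAF, at 0.903 to 1.86 times in KO_CAF and at 0.0409, 0.316 and 1.05 times in NPF. In tumor cells that ratio was 0.0141, 0.170, 1.19 and 0.0193 in WT_Tumor and 0.476, 0.0752 and 0.502 in KO_Tumor. All KO_CAF libraries were above all KO_Tumor libraries, and WT_Tumor 3 was the 1 tumor cell library inside the range of the tumor fibroblasts. The NPF range overlapped both cell types of the tumors. The ratio of Tgfbr2 to Tgfbr1 was 3.28 to 23.8 in the 11 fibroblast libraries and 0.964 to 2.48 in the 7 tumor cell libraries.

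The rest of the pathway was read from lists by role, each count beside the 12.5% of all genes called lower and 9.05% higher in tumor cells with Saa3 intact, and the 15.4% and 13.0% without it. Among 11 tested antagonists other than Grem1 and Fst, 7 were lower in tumor cells with Saa3 intact and 9 without it, and 0 were higher, with medians of -1.77 and -2.32 beside 0.07 and 0.05 over all genes. Fstl1, a secreted follistatin-like glycoprotein, was at -6.64 ± 0.99 with Saa3 intact (92.0 to 1625 FPKM in WT_CAF, 1.84 to 39.3 in WT_Tumor, limma adjusted p = 0.000799). The BMP-binding protein Bmper was at -5.47 ± 0.86 (adjusted p = 0.00103), and the chordin family members Chrdl2 and Chrd at -3.23 ± 0.55 and -2.74 ± 0.55. Without Saa3 the smallest adjusted p were those of Fstl1 (-7.38 ± 1.01), Bmper (-5.79 ± 0.88), Chrd (-2.94 ± 0.55) and the BMP modulator Twsg1 (-1.37 ± 0.28).

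Other ligands and receptors were mostly not called, at shares of the lists near those of all genes for several of the counts. Of 12 other ligands tested, 2 were lower and 1 higher with Saa3 intact, and 3 lower and 0 higher without it. The growth and differentiation factors Gdf6 (-3.39 ± 0.61 and -4.35 ± 0.62) and Gdf10 (-6.04 ± 1.18 and -6.75 ± 1.20) were lower in both comparisons. Bmp7 was higher with Saa3 intact (3.37 ± 1.14, limma adjusted p = 0.0480) and ranged from 0.498 to 55.9 FPKM in WT_Tumor, and Gdf1 was lower without it (-0.86 ± 0.26). Of 13 other receptors and co-receptors, 3 were lower and 0 higher with Saa3 intact, and 2 lower and 1 higher without it. Acvrl1 (-3.99 ± 0.80 and -4.36 ± 0.81), a type I receptor for circulating BMPs, and Eng (-3.89 ± 0.82 and -4.21 ± 0.83), the co-receptor endoglin, are also known as endothelial genes. The 6 endothelial markers summed to 0.466 to 31.2 FPKM in WT_CAF and 9.40 to 10.4 in KO_CAF, against 0.372 to 2.22 in WT_Tumor and 0.607 to 0.834 in KO_Tumor, and their part was not tested. The anti-Mullerian receptor Amhr2 was lower with Saa3 intact (-1.11 ± 0.30) and the activin receptor Acvr2b higher without it (0.96 ± 0.23).

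Of 11 tested genes that store and release latent TGF-beta, 3 were lower and 1 higher in tumor cells with Saa3 intact, and 5 lower and 1 higher without it (medians -1.05 and -1.65). The 1 gene called higher is a share near the 9.05% of all genes with Saa3 intact and below the 13.0% without it. Lrrc32, the surface anchor GARP, was at -5.39 ± 0.70 and -5.78 ± 0.71, and the matrix protease Bmp1 at -2.87 ± 0.54 and -2.94 ± 0.55. Ltbp2 of the latent binding protein family was at -2.48 ± 0.74 and -3.42 ± 0.75. The gene called higher in both comparisons was Itgb6, an epithelial integrin subunit that frees latent TGF-beta. It stood at 0 to 0.317 FPKM in the tumor fibroblasts, 0.256 to 5.55 in WT_Tumor and 3.05 to 6.52 in KO_Tumor (1.57 ± 0.43 and 2.53 ± 0.44).

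Of 13 Smads and regulators, 3 were higher and 0 lower with Saa3 intact, and 4 higher and 0 lower without it, while the medians were 0.22 and -0.08. The corepressor Tgif1 (1.58 ± 0.36 and 1.90 ± 0.37), the ubiquitin ligase Smurf1 (1.07 ± 0.31 and 1.28 ± 0.31) and the signal transducer Smad2 (0.77 ± 0.19 and 0.61 ± 0.19) were higher in both comparisons, and Smad3 (1.17 ± 0.39) without Saa3.

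Genes known to respond to TGF-beta were tested as a list of 16, of which 5 were lower and 2 higher in tumor cells with Saa3 intact, and 7 lower and 2 higher without it (medians -1.22 and -1.93). The contractile genes Acta2 (-6.30 ± 1.05 and -6.32 ± 1.06) and Tagln (-6.16 ± 1.23 and -6.18 ± 1.25) and the matrix gene Postn (-6.12 ± 1.49 and -7.66 ± 1.51) are also defining genes of fibroblasts. The matrix protein Tgfbi was at -3.16 ± 0.80 and -2.62 ± 0.81, and the collagen-associated Cthrc1 at -2.41 ± 0.77 and -5.20 ± 0.78. The 2 genes of this list that were higher in both comparisons were Itgb6, which the latent list also holds, and Tsc22d1 (1.41 ± 0.43 and 1.87 ± 0.43), named after its values were seen. Of 9 BMP-responsive genes 4 were lower in each comparison, and 1 was higher with Saa3 intact against 0 without it (medians -1.23 and -1.09). The helix-loop-helix factors Atoh8 (-3.00 ± 0.49 and -3.46 ± 0.50), Id3 (-3.05 ± 0.60 and -4.06 ± 0.61) and Id4 (-2.25 ± 0.58 and -2.55 ± 0.59) and the homeobox gene Msx1 (-1.93 ± 0.50 and -1.98 ± 0.51) were lower in both. Id2 was higher with Saa3 intact (2.34 ± 0.61, limma adjusted p = 0.0149), and was named after its values were seen. The adjusted p of all list genes given here without one lay between 0.000189 (Lrrc32) and 0.0388 (Cthrc1) by limma.

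**Figure D5:**
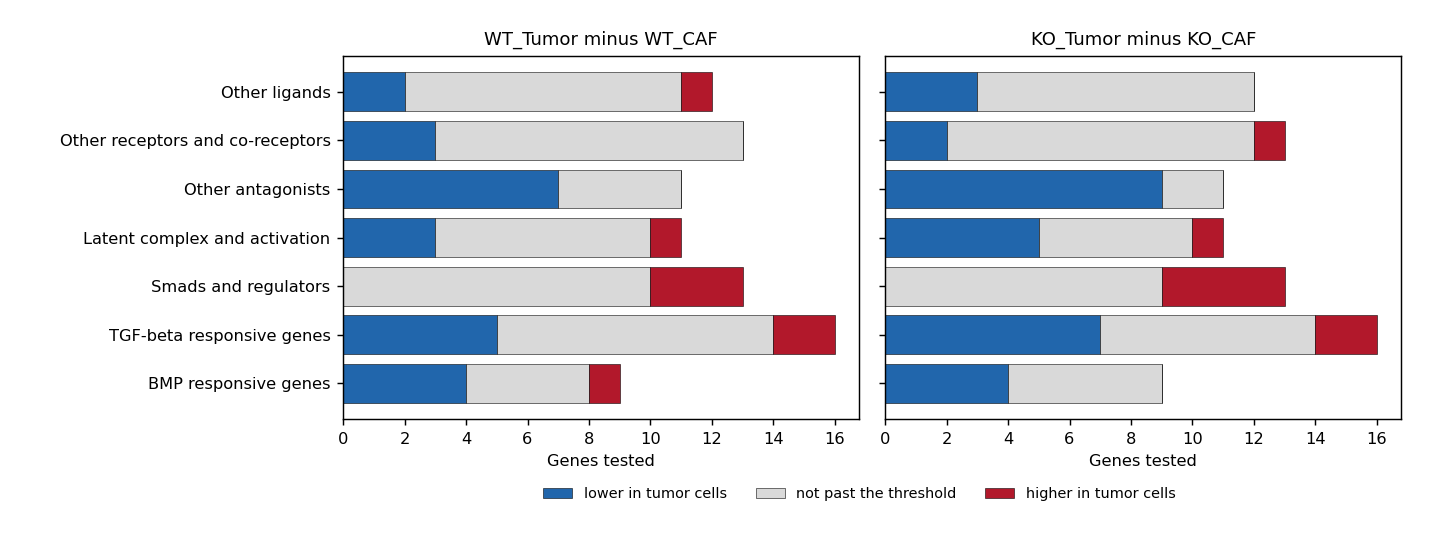
Number of tested genes in each list by role that were lower (blue), higher (red) or not past the threshold (grey) in tumor cells against tumor fibroblasts, with Saa3 intact (left) and without it (right). The other antagonists have 7 and 9 lower of 11, and the Smads and regulators 0 lower of 13 in both.

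Between tumor and normal fibroblasts the lists held 2 called genes. Acvr1b, the type I activin receptor, was at 1.91 ± 0.42 in WT_CAF against NPF (limma adjusted p = 0.0496), and its level followed the index form, at 0.634 to 1.81 FPKM in the 5 libraries with a 16-base index and at 2.29 to 23.4 in the other 13. Ltbp3, a latent TGF-beta binding protein, was at 1.64 ± 0.33 (adjusted p = 0.0300). NPF held 22.0, 40.8 and 48.4 FPKM and WT_CAF 82.8 to 137, and no library of the 2 groups overlapped. The KO_CAF (82.4 to 162) and tumor cell libraries (75.9 to 109) lay above NPF as well. The lists held 0 called genes in KO_CAF against WT_CAF, in KO_Tumor against WT_Tumor and in KO_CAF against NPF by limma.

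For each member the 3 tested genes with the most similar pattern over the 18 libraries were noted by Pearson correlation of log2 values, as a description that mixes cell type, index form and library. Tgfbr3 was closest to Emilin2 (0.988), Cyp1b1 (0.982) and Clmp (0.980), and Tgfbr2 to Apoe, C1qtnf7 and Pknox2 (0.973 each). Tgfbr1 was closest to Tmem35 (0.945), Inhbb to Slc27a3 (0.947), Tgfb2 to Bmp1 (0.932), Tgfb3 to Ckap4 (0.918) and Fst to Fzd1 (0.908). Tgfb1 was closest to Sept9 (0.902) and then to Furin (0.896), the protease that cleaves TGF-beta precursors. Grem1 (Rdh11, 0.886) and Inhba (Egln1, 0.787) had the least similar best matches of the 10.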

How the data were processed

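Per the labels' protocols, TruSeq libraries of poly(A) RNA from 18 samples were sequenced on a HiSeq2000 instrument. FPKM values per gene come from 1 table deposited by the authors. The submitters' processing notes name Cufflinks 2.2.1 with Cuffnorm, TopHat2 2.0.10 and, of mouse builds, mm9, without settings or annotation. Depth is unknown, so no counting error is given. FPKM sums were 396646 to 919859 per library, with 10657 to 11670 genes at 1 FPKM or more.

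Genes at 1 FPKM or more in at least 3 libraries (13369 of 23951) were tested on log2(FPKM + 1), which understates changes of low genes, with limma 3.58.1 (R 4.3.3): trended empirical Bayes, two-sided, all 18 libraries in 1 fit with group and index form as terms and 11 residual degrees of freedom. The procedure was tested on simulated data. Replicates were numbered in accession order; the series states biological replicates but names no animals. The members and lists were chosen with earlier results of these data known. In each list and comparison the up to 4 called genes with the smallest adjusted p were named. Alternatives changed the pseudocount, filter, index term, scaling, groups fitted and libraries left out. Promoter windows came from RefSeq (GRCm38.p6).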

Additional observations from a re-analysis of the deposited data

Results flagged for a closer look

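In 1 library, WT_Tumor 3, 3 of the 10 genes lay far from the other 3 libraries of its group by Dixon's test. Inhbb stood at 2.93 FPKM against 0.490 to 0.646, Fst at 27.4 against 4.52 to 4.63, and Grem1 at 2.32 against 19.1 to 21.6. Chance marks about 1 in 20 groups, and 20 groups of 4 or 5 libraries were examined. The 10 fibroblast markers summed to 707 FPKM in this library and to 67.5 to 114 in the others of the group, and the part of fibroblast RNA in these values was not tested. Without WT_Tumor 3, WT_Tumor minus WT_CAF was -2.96 ± 0.55 for Inhbb (limma adjusted p = 0.00342), -3.32 ± 0.71 for Fst (adjusted p = 0.00725) and 1.29 ± 1.12 for Grem1 (adjusted p = 0.440).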

How the results depend on the processing

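Depth is unknown, and groups of 3 to 5 libraries limit the precision. No paired analysis was possible because the labels carry no replicate numbers. Each comparison was refitted under up to 26 alternatives; KO_CAF against NPF was added after the data were seen, and with only its own groups it could not be fitted, since index form and group cannot be told apart there. Tgfbr2 and Tgfbr3 were called lower in tumor cells in 26 of 26 alternatives in both comparisons, and no call of a member reversed. These are not 26 separate checks. With the index term kept, leaving out an NPF library, WT_CAF 1 or WT_CAF 2 cannot move either difference and changes only its standard error. KO_Tumor and KO_CAF hold the same mix of index forms. Their difference therefore cannot move either when any wild-type library is left out, without the filter, without the index term, or with only the groups compared. Most of the alternatives thus test only the standard error and adjusted p of the knockout comparison. For WT_Tumor against WT_CAF, the number of members called was 6, fell to 2 with only the groups compared, and ranged from 3 to 7 with 1 library left out, with 3 without WT_CAF 3 and without WT_CAF 5. For KO_Tumor against KO_CAF it was 6 and ranged from 5 to 7. For WT_CAF against NPF it was 0, and 4 without WT_CAF 1 and the index term, 1 without WT_CAF 1 and WT_Tumor 4, and 0 to 1 with 1 library left out. For KO_CAF against NPF it was 0, and 2 without WT_CAF 1 and the index term. The effect of Saa3 loss and the interaction had 0 members called in every alternative run.

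The number of all genes called moved more. For WT_CAF against NPF it was 127, and 249 with no filter, 307 with no index term, 70 with FPKM scaled to a common sum, 2 with only the groups compared, 910 without WT_CAF 1 and the index term, and 46 to 1324 with 1 library left out. For KO_CAF against NPF it was 18, and 4 with a pseudocount of 0.1, 35, 241, 5 and 641 under the filter, index, scaling and WT_CAF 1 alternatives, and 7 to 394 with 1 library left out. For WT_Tumor against WT_CAF it was 2880, and 742 with only the groups compared and 1194 to 3557 with 1 left out, and for KO_Tumor against KO_CAF 3798 and 2201 to 4427. For KO_CAF against WT_CAF it was 1 (0 to 4 over all alternatives), for KO_Tumor against WT_Tumor 0 (up to 5, with no filter) and for the interaction 0 (up to 1). The cause of these changes was not tested.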
